A study of Mus musculus with 8 samples.

Results

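The circadian clock genes described here are Dbp, Tef, Per1, Per2, Per3, Ciart, Nr1d1, Nr1d2, Bhlhe41 and Npas2, a list of 10 genes chosen by symbol. 9 of them had a probe set that carries their symbol alone, out of 22180 genes measured in this way. Per2 had no value, because its probe set also carries the symbol 9830107B12Rik. The values come from 8 microarrays of total brain RNA, 2 arrays for each of 4 groups. The groups were C57BL/6Je/e mice (e/e below, yellow coat) given NDP-MSH, e/e mice given phosphate-buffered saline (PBS), wild-type mice (black coat) given NDP-MSH, and wild-type mice given PBS. Every mouse was immunized against MOG, a protein of the myelin sheath, which provokes a T cell attack on myelin, and brains were taken on day 14, at the maximum of the disease. NDP-MSH, a long-lived analog of alpha-MSH that activates melanocortin receptors, was injected into a vein on days 8, 10 and 12, each time 5 µg for a mouse. In e/e mice a germline mutation leaves every cell without a working Mc1r, the receptor through which melanocortins act on pigment cells, and genotype was read from the coat colour. The sources used here do not give the hour of tissue collection, the age or the sex of the mice. No label states that the 2 arrays of a group came from separate animals, so p-values measure only the spread between these arrays.

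The circadian clock is a feedback loop that runs in nearly every cell. BMAL1 (encoded by Arntl) pairs with CLOCK, or in the forebrain also with NPAS2, and switches on genes through a DNA motif called the E-box. Among these genes are the period and cryptochrome repressors, which then shut the pair down, and the nuclear receptors REV-ERB alpha and beta (Nr1d1 and Nr1d2), which repress Arntl and Npas2 through a motif called the RORE. DBP and TEF are output transcription factors that carry the rhythm to further genes through the D-box. In a rhythmic tissue Dbp, the period genes, Ciart and Nr1d1 therefore peak at roughly the opposite time of day to Arntl and Npas2, so that their levels read both the clock and the hour at which a tissue was taken.

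These motifs stand in the sequence before several of the clock genes. RefSeq promoter windows (assembly GRCm38.p6, 250 bases before to 50 after a transcript start) were at hand for the 9 measured genes, in 11 windows. The E-box CACGTG lay in 5 of these 11 windows, against 7.15% of 32851 windows of all genes. By gene this was 4 of 9, against 2187 of 27025. The D-box, searched as TTATGTAA and TTACGTAA, lay in the window of Per3 and in 1.06% of all windows, and the RORE, searched as AANT followed directly by AGGTCA or GGGTCA, in a window of Arntl and in 0.435% of all windows. Both strands were read, and CACGTG and TTACGTAA read the same on either strand. No match to these 3 motifs was found in the windows of Dbp, Nr1d1, Nr1d2 and Npas2, which says only that these letters are not in these windows. The following stretches show the matches in capitals with 9 bases on either side, 5′ to 3′ on the strand of the gene. They are shown as examples of the letters through which the loop is known to act. Sequence outside these windows was not searched, for Dbp or any other gene. Among the other loop genes the window of Cry1 holds an E-box and that of Timeless a D-box. Over both treatments e/e minus wild-type mice gave 0.03 ± 0.07 for Cry1 and -0.06 ± 0.08 for Timeless. A link between these motifs and the differences between groups was not tested.
Ciart, chr3:95882258-95882353, minus strand, 3 E-boxes: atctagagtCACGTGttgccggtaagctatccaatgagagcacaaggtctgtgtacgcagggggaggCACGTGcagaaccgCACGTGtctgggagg
Per1, chr11:69098774-69098797, plus strand, 1 E-box: acccaagtcCACGTGcagggatgt
Tef, first window, chr15:81802537-81802560, plus strand, 1 E-box: ctgtggctcCACGTGctgcagctg
Tef, second window, chr15:81811267-81811290, plus strand, 1 E-box: ctggcccagCACGTGtctacatcg
Bhlhe41, chr6:145865559-145865582, minus strand, 1 E-box: tacgttccgCACGTGagctgggtg
Per3, chr4:151044807-151044879, minus strand, 2 D-boxes: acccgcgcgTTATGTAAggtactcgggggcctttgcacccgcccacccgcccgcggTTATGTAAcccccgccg
Arntl, chr7:113207529-113207556, plus strand, 1 RORE: gaaggcagaAAGTAGGTCAgggacggag
A match is a description of the sequence and not a binding site shown in these brains.

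No source states the log base, which was taken to be 2, and each gene is centred on its median over the 8 arrays. Differences between arrays can thus be read, and levels of different genes cannot be compared. Differences are given on the log2 scale with the SE of a limma fit over all 8 arrays, and adjusted p is Benjamini-Hochberg over the 22180 genes at a threshold of 0.05. The steps left between possible values placed Dbp, Per1, Nr1d1, Nr1d2, Npas2, Bhlhe41 and 1 of the 2 Tef probe sets in the class with signals from 8 upward before centring, and Per3, Ciart and the other Tef probe set in the class from 4 to 8.

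The arrays differed in several ways besides their groups. Markers of the cerebellum were low on both wild-type NDP-MSH arrays, with list medians of -2.07 and -1.70 over 10 genes, against -0.07 to 0.32 on the other arrays. In bulk tissue, fewer cells of a type and less RNA per cell cannot be told apart. Wild-type NDP-MSH 1 alone carried pituitary transcripts (Prl at 6.97 and Gh at 6.54), and wild-type NDP-MSH 2 the olfactory bulb transcript Cdhr1 at 2.23. Y-linked signal appeared on 3 e/e arrays: the median of 4 sex-linked genes was 2.64 and 2.68 for the NDP-MSH pair and 2.06 for e/e PBS 2, against -0.12 to 0.01 on the other 5 arrays. Xist, the X-linked gene among the 4, read -4.46 and -4.56 on the e/e NDP-MSH pair. It read -0.82 on e/e PBS 2, near the -0.56 to 0.67 of the other 5 arrays, so e/e PBS 2 differed from that pair. Median values of 14 interferon gamma response genes were -1.97 and -2.02 in e/e NDP-MSH and -1.70 in e/e PBS 1, against -0.29 to 0.69 elsewhere. Snap25, a synaptic gene of all neurons, lay between -0.07 and 0.08 on the 8 arrays. It was 1 of 8 markers of neurons, oligodendrocytes and astrocytes, and others of these were less even. Gfap read -1.03 on e/e PBS 1, -1.06 on e/e NDP-MSH 1 and -1.19 on e/e NDP-MSH 2. Its remaining arrays read -0.0 to 0.05. Mog read -0.53 on wild-type NDP-MSH 1 and -0.39 on wild-type NDP-MSH 2, where the remaining arrays read -0.07 to 0.28. The part of these differences in the clock gene values was not tested.

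None of the 9 clock genes passed the threshold in any comparison. For NDP-MSH against PBS the share of all genes that passed was 0% in e/e mice, 0.176% in wild-type mice and 0% for the difference of these effects. For e/e against wild-type mice it was 0.338% under NDP-MSH and 0% under PBS. At an unadjusted p under 0.05 the limma fit gave 1 of 9 clock genes with NDP-MSH in e/e mice (3.56% of all genes), 0 of 9 in wild-type mice (12.3%) and 0 of 9 for the difference of effects (7.71%). Between genotypes it gave 1 of 9 under NDP-MSH (14.2%) and 2 of 9 under PBS (4.91%). Dbp was the 1 gene that met this looser level in both genotype comparisons. A value that missed the threshold does not show that groups were alike.

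**Figure D1:**
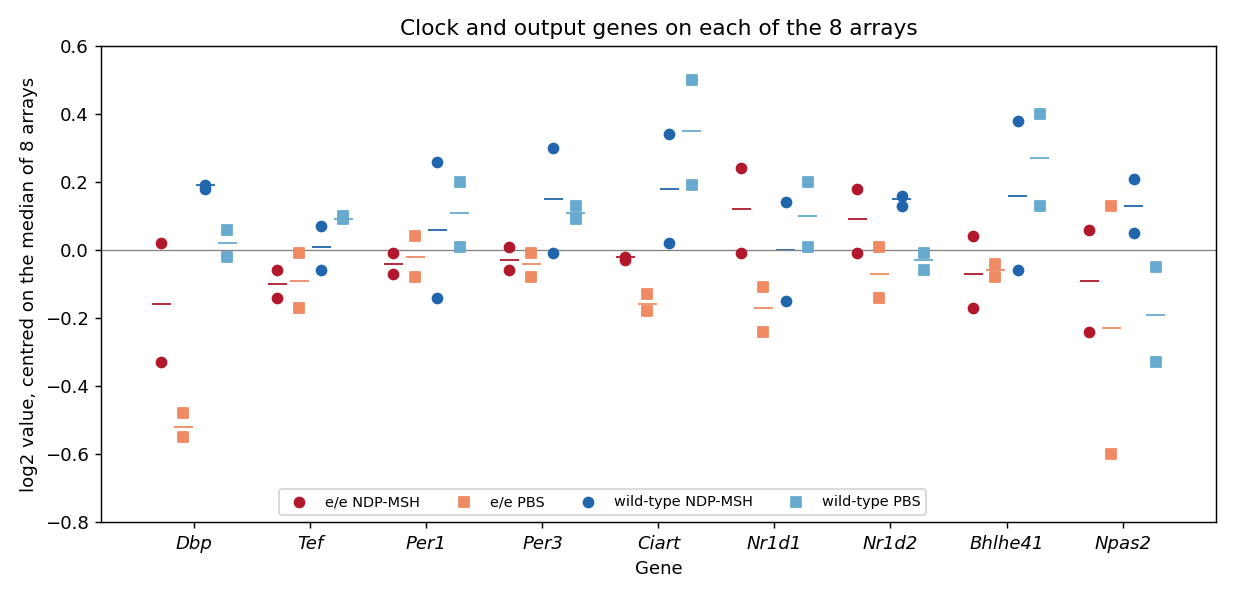
Each point is 1 array, with e/e NDP-MSH, e/e PBS, wild-type NDP-MSH and wild-type PBS from left to right within each of the 9 genes, and the short line is the mean of the 2 arrays. The vertical axis is the log2 value centred on the 8-array median. Dbp lay at -0.48 and -0.55 in e/e PBS, below the 4 wild-type arrays (-0.02 to 0.19), and Npas2 had the widest gap within a group, 0.72 between the e/e PBS arrays.

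The output transcription factors Dbp and Tef were read first. Dbp, whose protein binds D-boxes, lay at 0.02 and -0.33 with NDP-MSH and at -0.48 and -0.55 with PBS in e/e mice, against 0.19 and 0.18 with NDP-MSH and 0.06 and -0.02 with PBS in wild-type mice. Both genotypes were thus higher with NDP-MSH than with PBS without overlap, and both treatments were lower in e/e than in wild-type mice without overlap. Over all 8 arrays the genotypes overlapped narrowly, because e/e NDP-MSH 1 lay above wild-type PBS 2. The range of Dbp over the 8 arrays, 0.74, was wider than that of 92.8% of genes. Tef, a close relative of Dbp, lay at -0.14 and -0.06 with NDP-MSH and at -0.01 and -0.17 with PBS in e/e mice, against 0.07 and -0.06 with NDP-MSH and 0.10 and 0.09 with PBS in wild-type mice. Its range of 0.27 was wider than that of 34% of genes. These are means of 2 probe sets that disagreed. Under NDP-MSH 1 probe set gave -0.15 and -0.22 for e/e mice, against 0.13 and 0.18 for wild-type mice, while the other gave -0.14 and 0.11 for e/e mice, against 0.01 and -0.29 for wild-type mice.

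The period genes encode repressors of the CLOCK and BMAL1 pair. Per1 lay at -0.01 and -0.07 with NDP-MSH and at 0.04 and -0.08 with PBS in e/e mice, against 0.26 and -0.14 with NDP-MSH and 0.20 and 0.01 with PBS in wild-type mice. Its gap of 0.40 between the 2 wild-type NDP-MSH arrays equalled its range over all 8 arrays, so no group stood apart. Per3 lay at -0.06 and 0.01 with NDP-MSH and at -0.01 and -0.08 with PBS in e/e mice, against 0.30 and -0.01 with NDP-MSH and 0.13 and 0.09 with PBS in wild-type mice. For Per3 the PBS groups of the 2 genotypes did not overlap, while the NDP-MSH groups did.

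Ciart, Bhlhe41, Nr1d1 and Nr1d2 encode further repressors of the loop. Ciart, also called CHRONO, lay at -0.03 and -0.02 with NDP-MSH and at -0.13 and -0.18 with PBS in e/e mice, against 0.34 and 0.02 with NDP-MSH and 0.50 and 0.19 with PBS in wild-type mice. It was the 1 clock gene of the 9 whose 4 e/e arrays all lay below the 4 wild-type arrays, a pattern found in that direction in 2.57% of all genes. Bhlhe41 (DEC2), which competes for E-boxes, lay at 0.04 and -0.17 with NDP-MSH and at -0.04 and -0.08 with PBS in e/e mice, against 0.38 and -0.06 with NDP-MSH and 0.40 and 0.13 with PBS in wild-type mice. Nr1d1 lay at 0.24 and -0.01 with NDP-MSH and at -0.11 and -0.24 with PBS in e/e mice, against 0.14 and -0.15 with NDP-MSH and 0.20 and 0.01 with PBS in wild-type mice. Both e/e PBS arrays lay below the e/e NDP-MSH and the wild-type PBS arrays, but they overlapped wild-type NDP-MSH, whose array 2 lay at -0.15. Nr1d2 lay at 0.18 and -0.01 with NDP-MSH and at 0.01 and -0.14 with PBS in e/e mice, against 0.16 and 0.13 with NDP-MSH and -0.06 and -0.01 with PBS in wild-type mice.

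Npas2, the CLOCK paralog that works in the positive arm of the loop, lay at 0.06 and -0.24 with NDP-MSH and at 0.13 and -0.60 with PBS in e/e mice, against 0.21 and 0.05 with NDP-MSH and -0.05 and -0.33 with PBS in wild-type mice. Its range of 0.81 was wider than that of 94.3% of genes, but most of it lay within groups. e/e PBS 2 gave the lowest value. In all 4 groups most clock genes were higher on array 1 than on array 2. The count was 6 of 9 in e/e NDP-MSH (52.4% of all genes), 9 of 9 in e/e PBS (54.9%), 9 of 9 in wild-type NDP-MSH (45.5%) and 8 of 9 in wild-type PBS (50.5%). Dbp differed by at most 0.08 between the arrays of a group in 3 of the 4 groups, and by 0.35 in e/e NDP-MSH.

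The first question was how NDP-MSH changed these transcripts where Mc1r does not work. In e/e mice 6 of 9 clock genes were higher with NDP-MSH than with PBS, with a median of 0.13, where 53.7% of all genes were higher with a median of 0.008. The majority rested on 1 array, since 9 of 9 were higher without e/e PBS 1 and 4 of 9 without e/e PBS 2. Dbp differed by 0.36 ± 0.12, a fold of 1.29 (limma, unadjusted p = 0.0152, adjusted p = 1), and by 0.19 without e/e NDP-MSH 1 or 0.54 without e/e NDP-MSH 2. Nr1d1 differed by 0.29 ± 0.13 (adjusted p = 1). Ciart differed by 0.13 ± 0.13 and was the last of 3 clock genes whose e/e groups did not overlap, all 3 of them higher, as were 16% of all genes. Per1 at -0.02 ± 0.14, Per3 at 0.02 ± 0.11, Tef at -0.01 ± 0.09 and Bhlhe41 at -0.00 ± 0.16 lay close to 0. In this comparison the interferon gamma response genes were lower in 14 of 14 (median -1.47) and the Y-linked gene Eif2s3y was higher by 1.81 ± 0.54 (adjusted p = 1). Their part in the Dbp difference was not tested.

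In wild-type mice, with a working Mc1r, 4 of 9 clock genes were higher and 5 lower with NDP-MSH, with a median of -0.05, where 55% of all genes were higher with a median of 0.018. This count rested on single arrays: 3 of 9 were higher without wild-type NDP-MSH 1, 7 of 9 without wild-type NDP-MSH 2 and 6 of 9 without wild-type PBS 1. Dbp differed by 0.17 ± 0.12 (adjusted p = 0.59), Nr1d2 by 0.18 ± 0.09 (adjusted p = 0.466) and Npas2 by 0.32 ± 0.23 (adjusted p = 0.593). For these 3 genes both NDP-MSH arrays lay above both PBS arrays, as for 25.3% of all genes. Tef differed by -0.08 ± 0.09 and was the clock gene whose NDP-MSH arrays both lay below, as for 18.9% of all genes. Ciart (-0.17 ± 0.13), Nr1d1 (-0.11 ± 0.13), Bhlhe41 (-0.11 ± 0.16), Per1 (-0.05 ± 0.14) and Per3 (0.04 ± 0.11) overlapped between the groups. In this comparison all 10 cerebellar markers were lower, and 8 of them passed the threshold, which 0.176% of all genes did. Among the 8 were Cbln3 with -3.05 ± 0.21 and Gabra6 with -3.02 ± 0.20 (limma, adjusted p = 0.00662 for both).

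**Figure D2:**
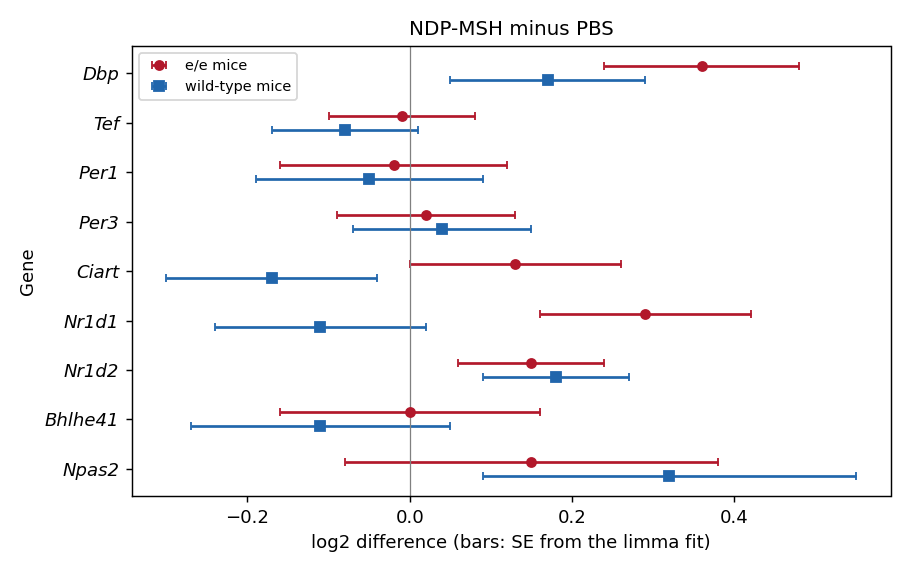
The horizontal axis gives the log2 difference of NDP-MSH minus PBS for the 9 clock genes, as circles for e/e mice and squares for wild-type mice, with bars of 1 SE. Dbp lay above 0 in both genotypes (0.36 in e/e and 0.17 in wild-type mice), and Nr1d1 lay at 0.29 in e/e and at -0.11 in wild-type mice.

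Whether the NDP-MSH effect differed by genotype was tested as the wild-type effect minus the e/e effect. Nr1d1 had the smallest p of the clock genes, with -0.40 ± 0.19 (limma, unadjusted p = 0.068, adjusted p = 0.674), followed by Ciart with -0.30 ± 0.19 (adjusted p = 0.745). Dbp gave -0.20 ± 0.16 (adjusted p = 0.802), with -0.020 without e/e NDP-MSH 1 and -0.37 without e/e NDP-MSH 2. The remaining 6 genes lay between -0.11 and 0.18.

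The genotypes were then compared under each treatment, which uses different arrays in the 2 comparisons. Under PBS all 9 clock genes were lower in e/e than in wild-type mice, with a median of -0.18, where 49.9% of all genes were lower with a median of 0.000. Dbp differed by -0.54 ± 0.12, a fold of 0.688 (limma, unadjusted p = 0.00195, adjusted p = 0.871), and Ciart by -0.51 ± 0.13, a fold of 0.704 (unadjusted p = 0.00579, adjusted p = 0.887). Bhlhe41 (-0.33 ± 0.16), Nr1d1 (-0.28 ± 0.13), Tef (-0.18 ± 0.09) and Per3 (-0.15 ± 0.11) followed, and these 6 genes did not overlap between the groups, where 16.7% of all genes lay lower without overlap. Per1 at -0.12 ± 0.14, Npas2 at -0.04 ± 0.23 and Nr1d2 at -0.03 ± 0.09 overlapped. Without e/e PBS 2, which carried Y-linked signal, 7 of 9 were lower and Dbp differed by -0.50 (adjusted p = 0.405). The interferon gamma response genes were lower in 14 of 14 here as well (median -0.71), and their part was not tested. That count rested on e/e PBS 1, where their median was -1.70. On e/e PBS 2 it was 0.69, against -0.29 and 0.63 on the wild-type PBS arrays. The e/e PBS arrays also enter the NDP-MSH comparison in e/e mice, so those 2 comparisons share arrays.

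Under NDP-MSH 8 of 9 clock genes were lower in e/e than in wild-type mice, with a median of -0.18, where 52.4% of all genes were lower. Dbp differed by -0.34 ± 0.12, a fold of 0.789 (limma, unadjusted p = 0.0195, adjusted p = 0.241), and by -0.52 without e/e NDP-MSH 1 or -0.17 without e/e NDP-MSH 2. Nr1d1 was the exception at 0.12 ± 0.13. Dbp, Ciart (-0.20 ± 0.13) and Tef (-0.11 ± 0.09) did not overlap, where 23.6% of all genes lay lower without overlap. For Tef the separation was only nominal, since array 2 of both groups read -0.06 and 1 of its 2 probe sets overlapped. Without wild-type NDP-MSH 1, the array with pituitary transcripts, 7 of 9 were lower, and without wild-type NDP-MSH 2, the array with Cdhr1, 9 of 9. On these arrays the cerebellar markers were higher in e/e mice in 10 of 10 genes (median 2.02), the interferon gamma response genes lower in 14 of 14 (median -2.31), and Xist fell by 4.54 on the log2 scale. Both e/e and neither of the wild-type NDP-MSH arrays carried Y-linked signal, so genotype and sex cannot be told apart here.

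Averaged over both treatments, a comparison added after the values were seen, e/e mice were lower than wild-type mice in 9 of 9 clock genes, with a median of -0.14, where 51.7% of all genes were lower, and 0 of 9 passed the threshold, which 0.0316% of all genes did. Dbp gave -0.44 ± 0.08 (limma, unadjusted p = 0.000823, adjusted p = 0.121), Ciart -0.35 ± 0.09 (adjusted p = 0.201), Bhlhe41 -0.28 ± 0.11 (adjusted p = 0.389) and Tef -0.14 ± 0.06 (adjusted p = 0.408). These 4 genes had an unadjusted p under 0.05, as did 6.46% of all genes in that direction. The count was 8 of 9 lower without e/e PBS 2 or without e/e NDP-MSH 2, and 9 of 9 without any 1 of the other 6 arrays.

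**Figure D3:**
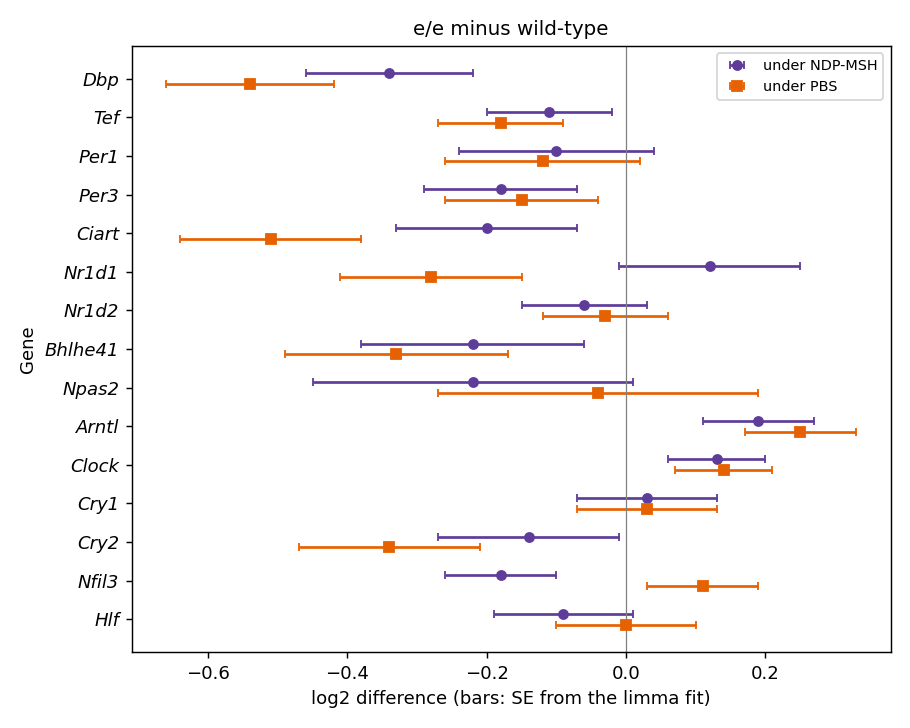
The horizontal axis gives the log2 difference of e/e minus wild-type mice, as circles under NDP-MSH and squares under PBS, with bars of 1 SE, for the 9 clock genes and 6 further genes of the loop. Dbp and Ciart lay left of 0 under both treatments, and Arntl (0.19 and 0.25) and Clock (0.13 and 0.14) lay right of it.

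Other genes of the loop came from a list of 18, of which 15 were measured and 0 passed in any comparison. Arntl, the partner of CLOCK and NPAS2, lay at 0.14 and 0.10 with NDP-MSH and at 0.23 and 0.06 with PBS in e/e mice, against -0.07 and -0.08 with NDP-MSH and -0.06 and -0.15 with PBS in wild-type mice. Clock lay at 0.05 and 0.04 with NDP-MSH and at 0.12 and 0.05 with PBS in e/e mice, against -0.06 and -0.11 with NDP-MSH and -0.04 and -0.06 with PBS in wild-type mice. For both genes every e/e array lay above every wild-type array, as for 2.58% of all genes in that direction, and the shift was small. Over both treatments Arntl gave 0.22 ± 0.06, a fold of 1.16 (limma, adjusted p = 0.212), and Clock 0.13 ± 0.05 (adjusted p = 0.34). Their direction was opposite to that of Dbp and Ciart. The list as a whole showed no such shift. Over both treatments 7 of the 15 genes were higher and 8 lower in e/e mice, with a median of -0.01. Npas2, the other partner of BMAL1, gave -0.13 ± 0.16.

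**Figure D4:**
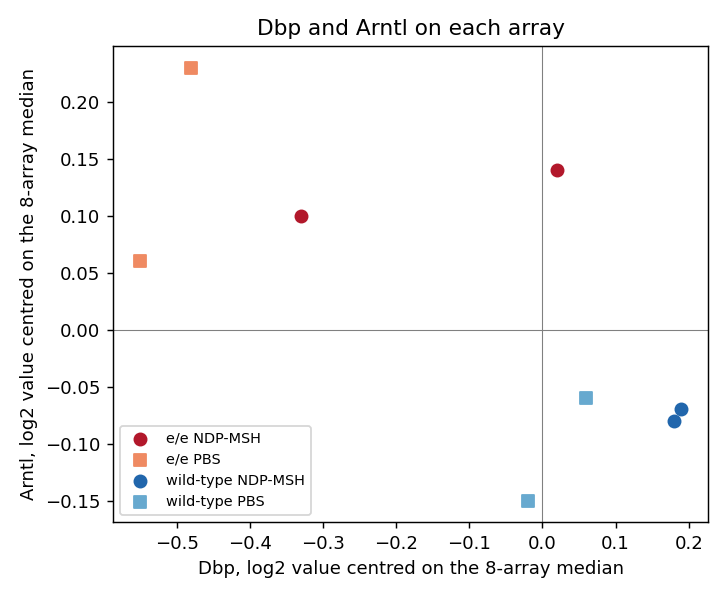
Each point is 1 array, with Dbp on the horizontal and Arntl on the vertical axis, both as log2 values centred on the 8-array median. The e/e arrays lay at Arntl values of 0.06 to 0.23 and Dbp values of -0.55 to 0.02, and the wild-type arrays at Arntl values of -0.15 to -0.06 and Dbp values of -0.02 to 0.19.

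Of the cryptochrome repressors, Cry1 lay at -0.05 and -0.10 with NDP-MSH and at 0.13 and 0.21 with PBS in e/e mice, against -0.19 and -0.03 with NDP-MSH and 0.03 and 0.26 with PBS in wild-type mice. It was lower with NDP-MSH in both genotypes without overlap, by -0.25 ± 0.10 in e/e mice (limma, adjusted p = 1) and by -0.25 ± 0.10 in wild-type mice (adjusted p = 0.381). Of 22180 genes 3172 lay lower without overlap in e/e mice and 4192 in wild-type mice. Cry2 differed by -0.14 ± 0.13 in e/e against wild-type mice under NDP-MSH (adjusted p = 0.663) and by -0.34 ± 0.13 under PBS (adjusted p = 0.971), and the genotypes overlapped over the 8 arrays. Nfil3, which represses through the same D-box that DBP activates, differed with NDP-MSH by -0.32 ± 0.08 in e/e mice (unadjusted p = 0.0049, adjusted p = 1) and by -0.03 ± 0.08 in wild-type mice, with a difference of effects of 0.29 ± 0.11 (adjusted p = 0.631). Hlf, the DBP relative, lay between -0.18 and 0.15 on all arrays. Rora, which activates Arntl through the RORE, differed by -0.72 ± 0.19 with NDP-MSH in wild-type mice (adjusted p = 0.253), on the arrays where cerebellar markers were low, and by -0.08 ± 0.19 in e/e mice.

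Clock outputs shared by many tissues were read from 9 measured genes of a list of 10, and 0 passed in any comparison. Usp2, a deubiquitinase gene, was lower on every e/e array than on every wild-type array, as were 2.57% of all genes. It differed by -0.15 ± 0.06 over both treatments (limma, adjusted p = 0.377), and the nearest arrays of the genotypes lay at -0.02 and 0.02. Nampt, the enzyme that sets NAD supply, differed by -0.48 ± 0.14 in e/e against wild-type mice under NDP-MSH (adjusted p = 0.191). Wee1, a cell cycle kinase gene, differed by 0.36 ± 0.14 with NDP-MSH in wild-type mice (adjusted p = 0.379).

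Per1 and other clock genes also respond to glucocorticoids and to neuronal activity, so both lists were read beside them. Of 17 glucocorticoid-responsive genes 15 were lower in e/e than in wild-type mice over both treatments (median -0.17), where 51.7% of all genes were, and 0 passed. Plin4, a lipid droplet gene, differed by -0.91 ± 0.14 (limma, adjusted p = 0.08). Ddit4, an inhibitor of mTOR signalling, differed by -0.51 ± 0.07 (limma, adjusted p = 0.0719). The 2 genes of the list that were higher were Zbtb16 (0.19 ± 0.09) and Klf9 (0.02 ± 0.07), and Tsc22d3 lay at -0.07 ± 0.08. A part of glucocorticoids in the clock gene values was not tested. Of 15 activity-induced early genes 5 were higher with NDP-MSH in e/e mice (median -0.10), where 53.7% of all genes were, and 13 in wild-type mice (median 0.31), where 55% of all genes were, and 0 passed. Their median by array was 0.08 and 0.03 with NDP-MSH in wild-type mice, against -0.02 and -0.40 with PBS, so wild-type PBS 2 stood apart. Of 9 marker genes of the suprachiasmatic nucleus, the master clock, 6 were higher and 3 lower with NDP-MSH in wild-type mice (median 0.07), where 55% of all genes were higher. In e/e mice 3 were higher and 6 lower (median -0.10), where 53.7% of all genes were higher. Lhx1, which also marks cerebellar neurons, fell by 1.33 with NDP-MSH in wild-type mice. It was the 1 gene of that list to pass in that comparison (limma, adjusted p = 0.0095), which 0.176% of all genes did.

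The 10 genes whose values over the 8 arrays were most like those of Dbp were Arhgap28, Cfap410, Igsf8, Leprot, Sqstm1, Rnf126, Gpr25, Rfc5, 1700008K24Rik and Dhrs7, with Pearson r between 0.94 and 0.98 over 8 arrays in 4 groups. No gene of the clock lists was among them. The most alike were Usp2 at rank 808 and Ciart at rank 1071 of 22179 genes, with r of 0.73 and 0.70, and Clock stood near the opposite end at rank 21992 with r of -0.83. These ranks are a description of arrays that share their groups, with no test.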

How the data were processed

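Total brain RNA was labelled with the Affymetrix WT Plus kit, per the labels' protocols. The deposited values were taken as log2. The sources used here do not give their summarisation, normalization or log base, and each row's 8-array median is 0 to within 5e-07. Array medians lay between -0.0043 and 0.0142, and the number of arrays limits the precision.

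Of 33793 probe sets, 23521 carried 1 gene symbol in GEO's platform annotation, 1814 several and 8458 none. Probe sets of 1 symbol were averaged to 22180 genes, 1082 of them with several probe sets. The signal class was read from the step between possible values (tolerance 0.05). A coefficient per group was fitted over all 8 arrays with limma 3.58.1 in R 4.3.3, with 4 residual and 3.45 prior degrees of freedom. Tests were two-sided and moderated, and p-values were adjusted over all genes by Benjamini-Hochberg. The fit was tested on simulated data. Tables and figures were made with Python 3.11.15 and matplotlib 3.10.9. Promoter windows came from RefSeq (GRCm38.p6).

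The clock genes, Arntl, Clock, Cry1, Cry2, Nfil3, Hlf and the markers Cbln3, Gabra6, Prl, Gh, Cdhr1, Xist and Eif2s3y were always named. From each further list and comparison up to 2 rises and 2 falls past the threshold could be named, or else the 2 genes of smallest p, and the 10 genes most like Dbp. Snap25, Timeless, Zbtb16, Klf9 and Tsc22d3 were named outside this rule, as was Gsk3b, which the search for opposite movement flagged. Members and lists were chosen with earlier results of these data known. Alternatives changed the normalization, centring, array weights, moderation, probe set summary, arrays fitted and replicate block, and left out each array in turn. The genotype comparison over both treatments and the crossed block were chosen after seeing the data.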

Additional observations from a re-analysis of the deposited data

Results flagged for a closer look

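The 9 clock genes, 15 other loop genes and 9 shared outputs were searched for opposite movement in the 2 genotypes. For 2 genes both arrays moved one way with NDP-MSH in e/e mice and the opposite way in wild-type mice, relative to the PBS arrays. The share of all genes with this joint pattern was not counted. Without overlap, 25.3% of all genes lay higher and 18.9% lower in wild-type mice. In e/e mice 3543 of 22180 genes lay higher and 3172 lower, so the 2 genes are not read as a result. Gsk3b, a kinase that phosphorylates clock proteins, differed by 0.08 ± 0.09 in e/e mice and by -0.15 ± 0.09 in wild-type mice, and the wild-type effect minus the e/e effect was -0.23 (limma, adjusted p = 0.71). Herpud1, an endoplasmic reticulum stress gene, differed by -0.11 ± 0.08 in e/e mice and by 0.09 ± 0.08 in wild-type mice, with a difference of effects of 0.20 (limma, adjusted p = 0.71). Neither difference passed the threshold.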

How the results depend on the processing

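The values are centred and only 2 arrays stand in each group, so differences can be read and levels cannot, and signal over background is known only as a class. 0 clock genes passed the threshold under any of 17 settings. Over 85 single-gene results and 1344 alternatives the direction held in 1284 and turned in 60, and none passed the threshold. Many of these alternatives cannot change a difference, such as robust moderation or leaving out an array of a group outside the comparison. Their direction was bound to hold, so the count of 1284 does not measure how stable the directions are.

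The count of all genes called moved more. For NDP-MSH in wild-type mice it was 39, against 20 after another quantile normalization and 5 from only the 4 arrays compared. For e/e against wild-type mice under NDP-MSH it was 75, against 26 after another quantile normalization and 477 from only the 4 arrays compared. The difference of effects gave 0, against 1 after another quantile normalization. Leaving out each array in turn gave 0 to 51 genes for NDP-MSH in e/e mice, 0 to 49 in wild-type mice, 0 to 7 for the difference of effects, 0 to 471 between genotypes under NDP-MSH, 0 to 4 under PBS and 0 to 383 over both treatments. The highest counts came without e/e PBS 1 (51 and 7), without either e/e PBS array (49 and 471) and without e/e PBS 2 (383). Counts of 0 came without wild-type PBS 2 for NDP-MSH in wild-type mice and without e/e NDP-MSH 1 between genotypes under NDP-MSH. The cause was not tested.

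Replicates of the same number correlated in their deviations by -0.251 to 0.443 over the pairs of groups, so the numbers were not taken to pair the arrays, although most clock genes were higher on array 1 in all 4 groups. The value of 0.443 was that of the e/e and wild-type PBS groups. With the replicate block 14 genes were called for NDP-MSH in wild-type mice, 51 between genotypes under NDP-MSH and 0 over both treatments, where 7 were called without it. At an unadjusted p under 0.05 (limma) the block gave 4 of 9 clock genes between genotypes under PBS, against 2 without it. For NDP-MSH in e/e mice it gave 2 against 1, for the difference of effects 1 against 0, and over both treatments 3 against 4. Counts in the remaining comparisons did not change. A crossed block, added after seeing the data, gave 455 between genotypes under NDP-MSH.

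Leaving out 1 array turned the direction of these log2 differences, none of which passed. For NDP-MSH minus PBS in e/e mice the values ran as Per1 -0.083 to 0.035, Per3 -0.02 to 0.055, Tef -0.092 to 0.068, Npas2 -0.21 to 0.51, Bhlhe41 -0.11 to 0.097, Arntl -0.11 to 0.06, Cry2 -0.17 to 0.23 and Hlf -0.098 to 0.17. For NDP-MSH minus PBS in wild-type mice the values ran as Per1 -0.25 to 0.15, Per3 -0.11 to 0.2, Nr1d1 -0.25 to 0.033, Bhlhe41 -0.33 to 0.11, Arntl -0.017 to 0.079 and Nfil3 -0.055 to 0.003. For the wild-type effect minus the e/e effect the values ran as Per1 -0.22 to 0.17, Per3 -0.13 to 0.18, Nr1d2 -0.072 to 0.12, Tef -0.15 to 0.009, Npas2 -0.18 to 0.54 and Bhlhe41 -0.33 to 0.11. For e/e minus wild-type mice under NDP-MSH the values ran as Per1 -0.3 to 0.099, Nr1d1 -0.022 to 0.26, Nr1d2 -0.16 to 0.039 and Cry1 -0.052 to 0.11. For e/e minus wild-type mice under PBS the values ran as Nr1d2 -0.11 to 0.043, Npas2 -0.4 to 0.32, Cry1 -0.087 to 0.14 and Hlf -0.14 to 0.13. For e/e minus wild-type mice over both treatments the values ran as Nr1d2 -0.094 to 0.003, Npas2 -0.31 to 0.049, Cry1 -0.028 to 0.087, Nfil3 -0.078 to 0.001 and Hlf -0.12 to 0.017. Another quantile normalization turned Per3 in wild-type mice (-0.007), Per3 (-0.011) and Nr1d2 (-0.011) in the difference of effects, and Hlf between genotypes under PBS (0.017). With each probe set as its own feature, only 1 of the 2 Tef probe sets was read, the one with signals from 8 upward. It turned Tef in wild-type mice (0.071) and in the difference of effects (0.19). The other Tef probe set did not turn in wild-type mice, with 0.01 and -0.29 under NDP-MSH against 0.03 and 0.16 under PBS.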
